A study of Mus musculus with 9 samples.

Results

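Genes of glycolysis, gluconeogenesis and glycogen were followed in the livers of normal, obese and bile acid treated obese mice. Of 33 such genes listed by name for this purpose, 30 had a probe set that the platform annotation pairs with that symbol alone, and these are 30 of the 19938 genes measured. Gpi1, Pfkfb1 and Eno1 had no such probe set and are not analysed here.

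The liver releases glucose into the blood during fasting and takes it up after a meal. Gluconeogenesis builds glucose from lactate, alanine and glycerol, and glucose-6-phosphatase sets it free. Glycolysis runs the other way, from glucose to pyruvate and lactate, and its steps come in tissue-specific enzyme forms. Glycogen is the store between them, and fructose enters below the phosphofructokinase step through ketohexokinase.

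The study asked how oral tauroursodeoxycholic acid (TUDCA), a taurine-conjugated bile acid, alters hepatic gene expression in obese mice. All groups were male mice bought at 6 weeks of age, fed chow ad libitum and fasted for 8 h before they were killed. N-control mice were C57BL/6J wildtype animals given tap water by gavage. OB-control mice carried the leptin mutation (B6.V-Lepob/J, ob/ob), so that they make no functional leptin anywhere, and received tap water too. OB-TUDCA mice were ob/ob animals given 500 mg/kg TUDCA by gavage 2 times a day for 3 weeks. The methods count 6 mice per group, and there are 3 arrays per group, so each value below has n = 3 arrays. The labels call the arrays biological replicates and say no more about their origin, and p-values measure the spread between these arrays. A normal mouse given TUDCA was not among the groups analysed.

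Values are log2 signals, so a difference is the log2 of a fold change. The number of arrays limits their precision, and no read depth exists. The tissue matched its label: the mean of 9 measured hepatocyte markers lay between 12.35 and 12.54 on all 9 arrays, and the lowest of these markers, Asgr1, between 9.70 and 10.22. N-control replicate 2 stood apart, with a mean of 10.06 over 22 measured pancreatic acinar markers against 3.87 to 4.24 on the other 8 arrays. Without it, all 30 differences between OB-control and N-control kept their sign, and the largest shift was 0.59, in Ppp1r3c. Between OB-TUDCA and N-control 28 of the 30 kept their sign. The genes of the whole series with an adjusted p under 0.05 in limma fell from 189 to 67 in the former comparison. In the latter they fell from 646 to 245. Whole liver was measured, so fewer cells of a type and less RNA per cell cannot be told apart. An identical value on 2 or more arrays occurred in 48.7% of all probe sets and in 6 of the 36 probe sets of these genes, one each of Eno3, Gys2, Hk3, Pfkm, Pfkp and Pkm. Ties within a group, found in Pfkp and Hk3, make its spread look small. Those of Eno3, Gys2, Pfkm and Pkm lay between arrays of different groups.

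In OB-control livers none of the 30 genes passed the adjusted threshold against N-control, although the arrays did not overlap between the groups in 10 genes that were higher and 3 that were lower, with 8.49% and 6.77% of all genes. In OB-TUDCA livers Aldoa, the muscle-type aldolase, and Pfkp, the platelet-type phosphofructokinase, passed as higher than in OB-control, by 0.998 and 0.64 on the log2 scale. Both calls ended with most single arrays left out and in a fit of only these 2 groups, and the Pfkp signals were low. The textbook glucose output genes G6pc and Pck1 passed in none of the comparisons in the fit of 3 group means. With the replicate numbers as a block, G6pc passed as lower in both obese groups than in N-control. Both main comparisons use the same OB-control arrays, so their differences are given side by side and not set against each other.

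Against N-control, 0 of 30 genes were higher and 0 were lower in OB-control at an adjusted p under 0.05 in limma, where 0.456% of all genes were higher and 0.492% lower. Without adjustment, 9 genes were higher at p under 0.05, with 6.55% of all genes, and 3 were lower, with 5.59%. The 10 genes whose OB-control arrays all exceeded the N-control arrays were Fbp1, Pcx, Hk2, Gckr, Pfkl, Tpi1, Pgk1, Pgam1, Pkm and Ldha. The 3 of the reverse kind were G6pc, Pfkp and Pfkfb3. The median difference of the 30 genes was 0.09 against 0.02 over all genes.

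Between OB-TUDCA and OB-control, 2 of 30 genes were higher and 0 lower at an adjusted p under 0.05, with 0.115% and 0.186% of all genes. Without adjustment, 3 genes were higher (6.26% of all genes) and 1 was lower (5.72%) at p under 0.05. Arrays without overlap were found in the same numbers, 3 higher and 1 lower, with 7.26% and 6.53% of all genes. The median difference was 0.08 against 0.01 over all genes, and 0.04 without OB-control replicate 2. Against N-control, OB-TUDCA livers had 3 genes higher and 0 lower, with 1.35% and 1.89% of all genes past the threshold. They were Aldoa, Pfkl and Ldha. The counts on the TUDCA side are few, and a single array decides several of them, as given with each gene.

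**Figure D1:**
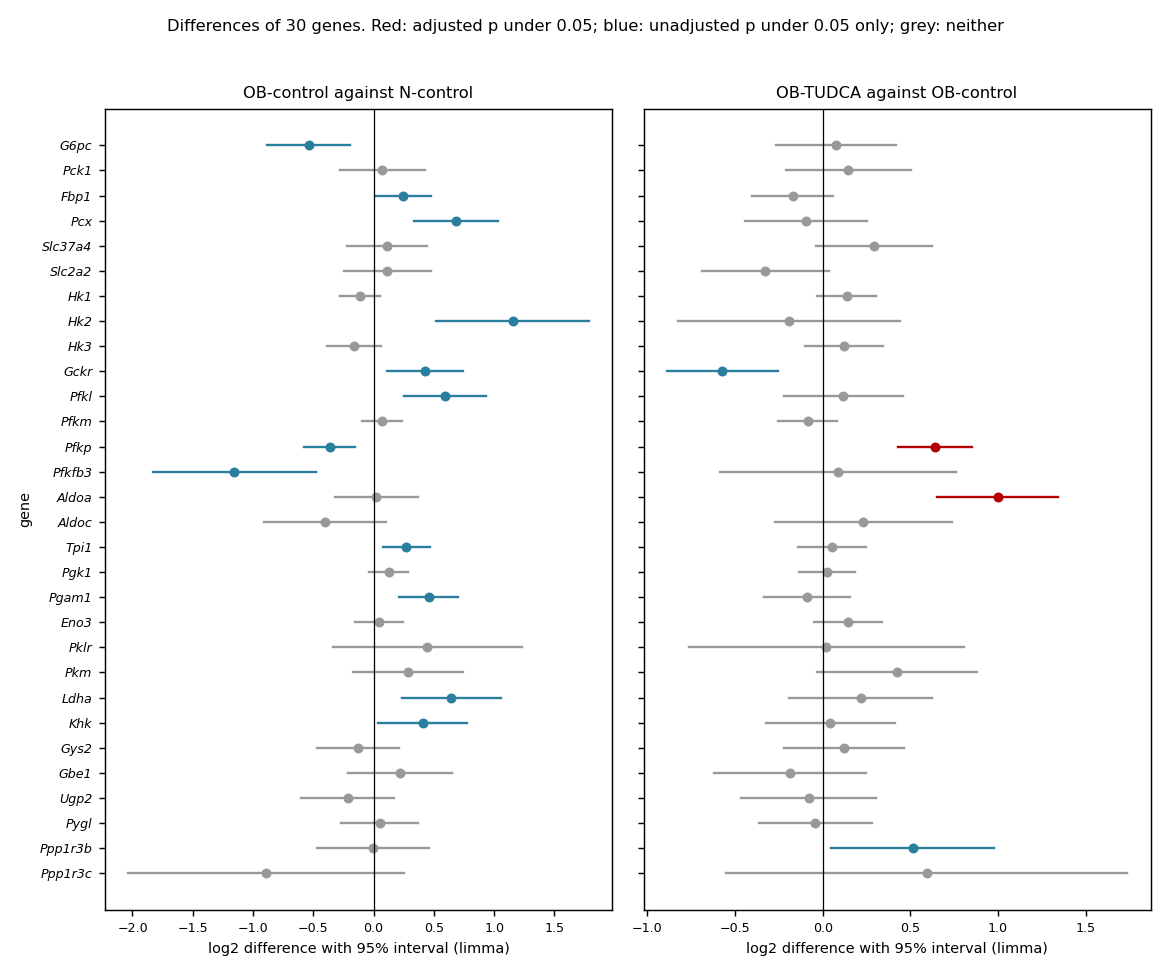
Log2 difference (horizontal axis) of each of the 30 measured genes (vertical axis), with its 95% interval from limma, for OB-control against N-control on the left and OB-TUDCA against OB-control on the right. No gene is red on the left; Aldoa at 0.998 and Pfkp at 0.64 are red on the right.

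Among the 6 glucose output genes, none passed the threshold in either main comparison, and the differences pointed both ways. G6pc encodes the catalytic unit of glucose-6-phosphatase, the last step of glucose release. Its signals in N-control were 12.34, 12.48 and 11.94 on replicates 1 to 3. In OB-control they were 11.79, 11.85 and 11.50, and in OB-TUDCA 11.92, 11.84 and 11.62. Every N-control array exceeded every array of both obese groups, whose ranges overlapped each other. The difference between OB-control and N-control was -0.54 (SE 0.15, adjusted p = 0.171), and that between OB-TUDCA and OB-control was 0.08, with an interval from -0.27 to 0.42. With the replicate numbers as a block in limma, the adjusted p against N-control was 0.0350 in OB-control and 0.0272 in OB-TUDCA. Whether the numbers mark pairs was not settled, as given at the end.

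Pck1, the cytosolic phosphoenolpyruvate carboxykinase, showed no such separation. Its N-control arrays read 11.71, 12.03 and 12.06. The OB-control arrays read 12.07, 12.24 and 11.71, and the OB-TUDCA arrays 12.13, 11.97 and 12.36. All 3 groups overlapped. The differences were 0.07 (interval -0.28 to 0.43) for OB-control against N-control and 0.15 (interval -0.21 to 0.50) for OB-TUDCA against OB-control.

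Pcx, the mitochondrial pyruvate carboxylase that makes oxaloacetate for gluconeogenesis, was the glucose output gene with the widest gap. N-control replicates 1 to 3 gave 10.07, 10.26 and 10.46. OB-control gave 10.93, 10.66 and 11.23, and OB-TUDCA gave 10.70, 10.84 and 10.997. Both obese groups lay wholly above the N-control arrays and overlapped each other. The difference between OB-control and N-control was 0.68 (SE 0.15, 1.60-fold, adjusted p = 0.0973), and without OB-control replicate 2 it was 0.82, with an adjusted p of 0.0413. Without OB-control replicate 3 it was 0.54 (adjusted p = 0.194), and without N-control replicate 1 it was 0.58 (adjusted p = 0.329). Pcx is also made in fat cells, and the mean over 10 measured adipocyte markers of 11 listed lay between 5.27 and 5.84 in OB-control, between 5.32 and 5.74 in OB-TUDCA and between 5.01 and 5.24 in N-control. Between OB-control and N-control 7 of the 10 had a positive and 3 a negative difference, with a median of 0.08 and none past. Over all genes, 11363 of 19938 had a positive difference. Cidea, Plin4 and Fabp4 were higher on average in OB-control. Adipoq, between 2.52 and 2.92 on all arrays, was lower on average, and the OB-control arrays of Lep lay within its N-control range of 2.76 to 3.22. The part of fat cells in the Pcx values was not tested.

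Fbp1, the liver fructose-1,6-bisphosphatase, showed a small and tight gap. Its N-control signals were 12.58, 12.50 and 12.43, its OB-control signals 12.77, 12.75 and 12.72, and its OB-TUDCA signals 12.73, 12.65 and 12.34. All OB-control arrays exceeded all N-control arrays, whereas OB-TUDCA replicate 3 was the lowest of the 9. The differences were 0.24 (SE 0.10, adjusted p = 0.382) and, for OB-TUDCA against OB-control, -0.17 (SE 0.10). The transporters that carry glucose-6-phosphate into the endoplasmic reticulum, Slc37a4, and glucose out of the cell, Slc2a2, differed by 0.11 and 0.12 between OB-control and N-control. Between OB-TUDCA and OB-control they differed by 0.29 and -0.33, with adjusted p of 0.472 and 0.462.

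**Figure D2:**
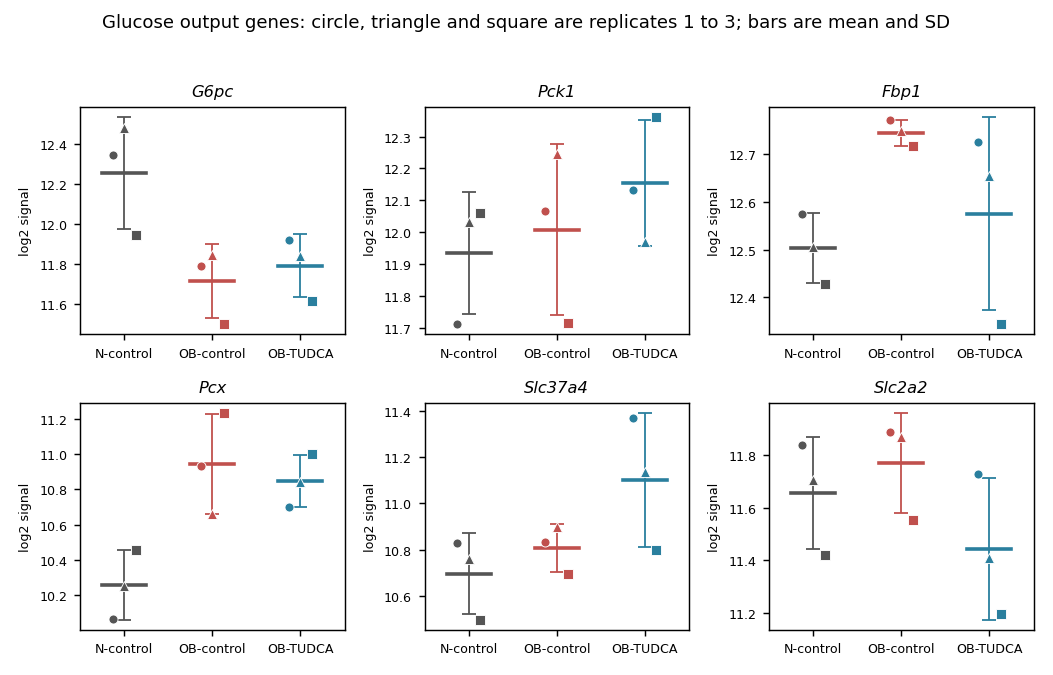
Log2 signal (vertical axes, each with its own scale) of the 6 glucose output genes on the 9 arrays by group, with the mean as a bar and the SD as a whisker. G6pc is highest on the 3 N-control arrays and Pcx lowest on them, while Pck1 overlaps in all groups.

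Entry into glycolysis runs through the hexokinases. Hk2, the insulin-responsive hexokinase of muscle and fat, is low in normal liver. It read 4.52, 4.66 and 4.13 in N-control, 5.54, 5.04 and 6.18 in OB-control and 5.01, 5.70 and 5.48 in OB-TUDCA. Both obese groups lay above N-control on every array, with a wide scatter. The OB-control difference was 1.15 (SE 0.28, 2.22-fold, adjusted p = 0.121), and without OB-control replicate 2 it was 1.43 with an adjusted p of 0.0433. Without OB-control replicate 3 it was 0.86 (adjusted p = 0.222), and with any 1 array left out the adjusted p ran up to 0.308. The adipocyte markers described for Pcx, which went both ways between OB-control and N-control, bear on Hk2 as well, and their part was not tested. Hk3, a hexokinase of white blood cells, read between 4.12 and 4.55 on all arrays, with differences of -0.16 and 0.12.

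Gckr encodes a regulatory protein of glucose phosphorylation in liver. Its signals were 10.10, 10.01 and 9.82 in N-control. They were 10.41, 10.56 and 10.24 in OB-control and 10.11, 9.60 and 9.79 in OB-TUDCA. The OB-control arrays were the 3 highest of the 9, and the other groups overlapped each other. The difference was 0.43 (SE 0.14, adjusted p = 0.242) for OB-control against N-control and -0.57 (SE 0.14, adjusted p = 0.123) for OB-TUDCA against OB-control, so it passed in neither. Gckr was the one gene of the 30 whose OB-TUDCA arrays all lay below the OB-control arrays.

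Hk1, the hexokinase of most other tissues, was measured by a pair of probe sets that went different ways. The one that lists RefSeq transcripts had a low signal, 4.44, 4.67 and 4.52 in N-control, 4.53, 4.72 and 4.74 in OB-control and 4.92, 5.05 and 4.87 in OB-TUDCA. All OB-TUDCA arrays lay above the others, and the difference from OB-control was 0.28 (SE 0.10, adjusted p = 0.255). The second probe set read 11.98, 11.82 and 11.84 in N-control, between 11.48 and 11.64 in OB-control and between 11.45 and 11.62 in OB-TUDCA. Its only listed transcript also occurs in 16 probe sets of several symbols, each of which names the ribosomal protein gene Rpl17. The average of both probe sets, with differences of -0.11 and 0.14, therefore mixes a low signal with a high one of doubtful origin.

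Phosphofructokinase makes fructose-1,6-bisphosphate, the committed step of glycolysis, and has liver, muscle and platelet forms. Pfkl, the liver form, read 6.58, 6.54 and 6.57 in N-control. It read 7.21, 7.01 and 7.24 in OB-control and 7.002, 7.15 and 7.66 in OB-TUDCA. Both obese groups lay above N-control without overlap and overlapped each other. OB-TUDCA livers had 1.64-fold more Pfkl signal than N-control (difference 0.71, SE 0.15, adjusted p = 0.0393), and the OB-control difference was 0.59 (SE 0.15, adjusted p = 0.137).

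Pfkp, the form named after platelets, had its lowest arrays in OB-control. N-control gave 4.80, 4.83 and 4.80, OB-control gave 4.58, 4.26 and 4.49, and OB-TUDCA gave 4.98, 5.17 and 5.11. The 3 groups did not overlap anywhere, although all signals were low and N-control replicates 1 and 3 hold the same value. OB-TUDCA exceeded OB-control 1.56-fold (difference 0.64, SE 0.09, adjusted p = 0.0386). The difference between OB-control and N-control was -0.36 (SE 0.09, adjusted p = 0.139), and that between OB-TUDCA and N-control was 0.28 (SE 0.09, adjusted p = 0.160). Pfkm, the muscle form, stayed between 6.996 and 7.26 on all arrays, with differences of 0.07 and -0.09.

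Pfkfb3 makes and breaks down fructose-2,6-bisphosphate, the activator of phosphofructokinase. Its signals were 7.25, 7.29 and 6.35 in N-control, 5.83, 5.27 and 6.33 in OB-control and 5.92, 5.70 and 6.07 in OB-TUDCA. Every array of the obese groups lay below every N-control array, most narrowly OB-control replicate 3 below N-control replicate 3. The differences from N-control were -1.15 (SE 0.30, adjusted p = 0.139) in OB-control and -1.07 (SE 0.30, adjusted p = 0.0965) in OB-TUDCA. Without N-control replicate 3 the latter was -1.37 with an adjusted p of 0.0405, without replicate 2 -0.90 (adjusted p = 0.233) and without replicate 1 -0.92 (adjusted p = 0.296).

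Aldolase splits fructose-1,6-bisphosphate into trioses. Aldoa, the form of muscle and of many other cells, read 9.40, 9.29 and 9.25 in N-control and 9.30, 9.10 and 9.61 in OB-control. In OB-TUDCA it read 10.05, 10.53 and 10.42. The OB-TUDCA arrays were the 3 highest, and the control groups overlapped, with a difference of 0.02 (interval -0.32 to 0.37). Aldoa rose 1.997-fold over OB-control (difference 0.998, SE 0.15, adjusted p = 0.0402) and 2.03-fold over N-control (difference 1.02, SE 0.15, adjusted p = 0.0101). Aldoc, the form of brain, read between 6.55 and 7.80, with differences of -0.40 (SE 0.22) and 0.23 (SE 0.22).

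The calls of Aldoa and Pfkp between OB-TUDCA and OB-control rest on few arrays. Without OB-TUDCA replicate 1 both passed, and without OB-control replicate 3 only Aldoa did, with an adjusted p of 0.0753 for Pfkp. Leaving out any other array ended both calls, with adjusted p between 0.0663 and 0.160 for Aldoa and between 0.0507 and 0.146 for Pfkp. This includes N-control replicates 1, 2 and 3, which take no part in the difference and only in the shared spread (adjusted p of 0.0752, 0.0837 and 0.0710 for Aldoa, and of 0.0744, 0.0798 and 0.0626 for Pfkp). With OB-control replicates 1 and 2 left out in turn, Aldoa had 0.160 and 0.0663 and Pfkp 0.125 and 0.0507. With OB-TUDCA replicates 2 and 3 left out in turn, Aldoa had 0.150 and 0.116 and Pfkp 0.146 and 0.109. Fitted on the OB-control and OB-TUDCA arrays alone, both differences were the same, with adjusted p of 0.165 and 0.158, and no gene of all 19938 passed. An acinar marker covariate gave adjusted p of 0.0837 for Aldoa and 0.0792 for Pfkp, and the replicate numbers as a block gave 0.0572 and 0.0587. Over all settings the Aldoa difference stayed between 0.88 and 1.14 and that of Pfkp between 0.55 and 0.71.

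Markers of other liver cells were also higher in some OB-TUDCA arrays. Of 11 measured macrophage markers (12 listed) 9 were higher on average in the OB-TUDCA arrays than in the OB-control arrays and none passed the threshold, and their mean per array ranged from 7.02 to 7.65 against 6.93 to 7.29. Of 13 leukocyte markers 11 were higher on average, with none past, from 3.94 to 4.31 against 3.95 to 4.01. For 12 skeletal muscle markers the ranges were 4.03 to 4.26 and 4.09 to 4.17. Of 9 stellate cell markers 7 were higher and 2 lower on average, with a median difference of 0.08. Of 5 measured bile duct cell markers (7 listed) 4 were higher and 1 lower, with a median of 0.21, and none of either list passed. Of 8 endothelial markers the OB-TUDCA mean was below the OB-control mean in 6 and above it in 2, with none past, a median of -0.24 and means per array of 7.22 to 7.43 against 7.22 to 7.49. Lyve1 had the greatest positive difference of them, 1.61. Against N-control, with means of 7.47 to 7.58, 1 of the 8 passed as higher and 4 as lower in OB-TUDCA, with 1.35% and 1.89% of all genes. The part of these cells in the Aldoa, Pfkp, Pfkl and Ldha values was not tested.

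The start sites of the 4 genes that passed in any comparison are shown with the short motif of hypoxia-inducible factors, known regulators of glycolysis genes. Each line is the gene's own strand, 5′ to 3′, over 300 bases that span a RefSeq transcription start in GRCm38.p6 and lie mostly before it, and capitals mark ACGTG or GCGTG on either strand (read as CACGT or CACGC on the other). Aldoa has 3 such windows and Ldha 2, and the one with the most matches is printed, for Aldoa the first listed of 2 overlapping windows with 1 match each.
Aldoa, chr7:126799205-126799504, minus strand: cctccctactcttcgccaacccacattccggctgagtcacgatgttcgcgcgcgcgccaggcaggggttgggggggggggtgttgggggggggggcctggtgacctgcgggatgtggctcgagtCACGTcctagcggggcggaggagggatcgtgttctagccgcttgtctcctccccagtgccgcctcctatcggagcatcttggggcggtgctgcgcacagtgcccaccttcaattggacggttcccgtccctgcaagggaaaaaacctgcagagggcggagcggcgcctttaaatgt
Pfkp, chr13:6648722-6649021, minus strand: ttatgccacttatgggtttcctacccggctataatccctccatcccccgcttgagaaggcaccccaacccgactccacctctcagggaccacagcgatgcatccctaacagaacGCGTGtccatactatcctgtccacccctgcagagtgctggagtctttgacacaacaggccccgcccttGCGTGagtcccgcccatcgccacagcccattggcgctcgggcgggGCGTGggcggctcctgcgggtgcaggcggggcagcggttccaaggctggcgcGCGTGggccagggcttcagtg
Pfkl, chr10:78009758-78010057, minus strand: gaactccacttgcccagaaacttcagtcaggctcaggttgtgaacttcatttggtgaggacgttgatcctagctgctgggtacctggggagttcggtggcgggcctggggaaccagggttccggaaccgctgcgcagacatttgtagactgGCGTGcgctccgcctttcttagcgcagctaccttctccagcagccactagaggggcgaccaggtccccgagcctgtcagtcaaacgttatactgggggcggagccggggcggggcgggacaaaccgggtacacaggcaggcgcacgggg
Ldha, chr7:46845554-46845853, plus strand: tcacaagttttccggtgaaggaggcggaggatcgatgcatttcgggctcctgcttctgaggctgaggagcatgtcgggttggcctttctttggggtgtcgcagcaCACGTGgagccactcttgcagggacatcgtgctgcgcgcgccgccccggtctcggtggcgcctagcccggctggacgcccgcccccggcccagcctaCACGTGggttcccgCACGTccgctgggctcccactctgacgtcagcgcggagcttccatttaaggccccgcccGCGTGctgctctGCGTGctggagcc
Pfkp held 4 matches of GCGTG and none of ACGTG. Pfkl held 1 GCGTG, and Aldoa 1 ACGTG, read on the opposite strand. Ldha held 5 matches of ACGTG and 2 of GCGTG, where each of its 2 CACGTG palindromes counts as 2 matches of ACGTG. It also held 1 TGACGTCA, the cyclic AMP response element, which contains TGACG. Windows were found for 28 of the 30 genes (43 windows; Gys2 and Ppp1r3b had none). ACGTG occurred in 44.2% of these windows and in 19.6% of all 32851, and GCGTG in 37.2% and 32.4%. CACGTG, which contains ACGTG, was in 14% and 7.15%, TGACGTCA in 2.33% and 1.79%, TGACG in 25.6% and 20.8%, and GTAAACA, a forkhead motif, in 2.33% and 3.65%. Genes without a call held matches too: Ugp2 had 1 ACGTG and 5 GCGTG in a window, and Pcx had 3 ACGTG in one. The windows of other genes without a call held neither, among them G6pc and Fbp1 of glucose output and Tpi1 and Pklr of glycolysis. Windows of a gene can overlap, base composition was not matched, and a match of letters is not a binding site. The part of these factors in the values was not tested.

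**Figure D3:**
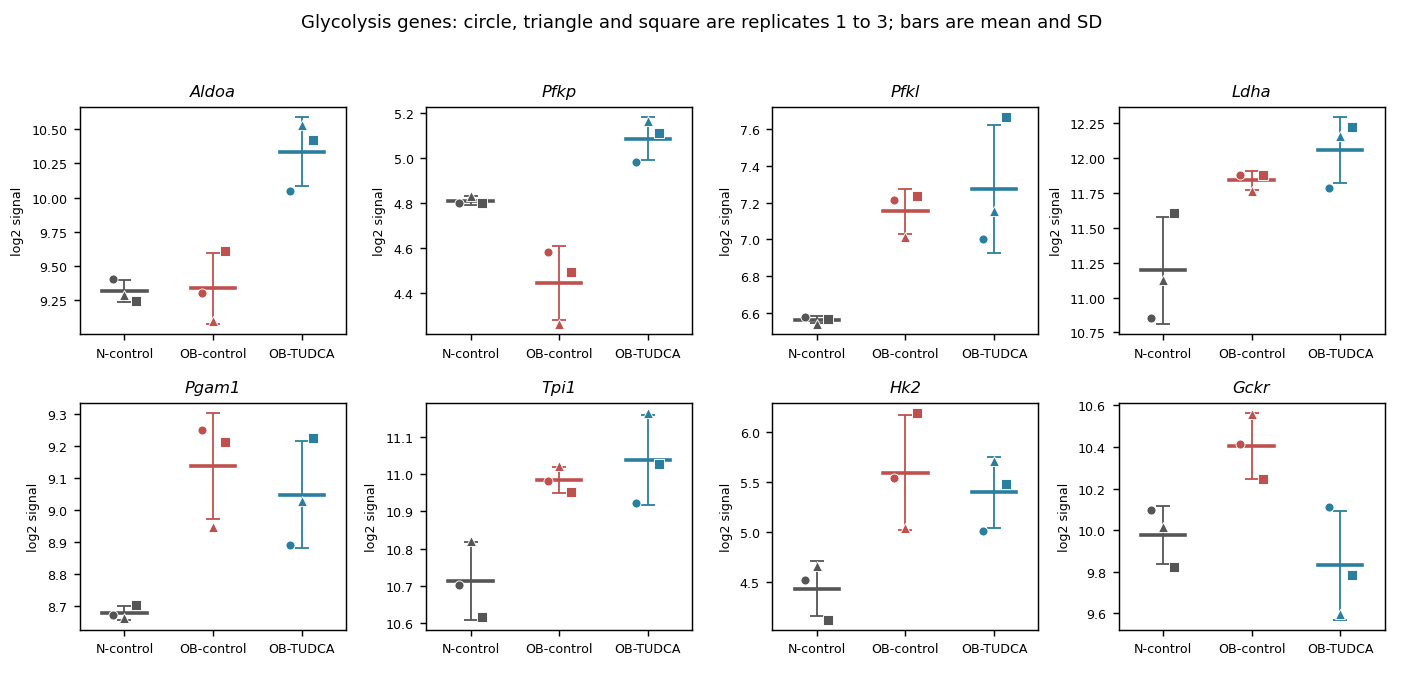
Log2 signal (vertical axes, each with its own scale) of 8 glycolysis genes on the 9 arrays by group, with the mean as a bar and the SD as a whisker. Aldoa and Pfkp are highest on the 3 OB-TUDCA arrays, and Pfkl, Ldha, Pgam1, Tpi1 and Hk2 are lowest on the 3 N-control arrays.

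Of the 9 genes from aldolase to lactate, the mean of 8 was above that of N-control in the OB-control arrays, with a median difference of 0.27. The OB-TUDCA mean exceeded the OB-control mean in 8 as well, with a median of 0.14, and Aldoa alone passed. Of all 19938 genes, 11363 and 10691 were higher on average in these 2 comparisons. Tpi1, the triose phosphate isomerase, read 10.70, 10.82 and 10.62 in N-control, 10.98, 11.02 and 10.95 in OB-control and 10.92, 11.16 and 11.03 in OB-TUDCA. N-control lay below both obese groups on all arrays, and the OB-control difference was 0.27 (SE 0.09, adjusted p = 0.224).

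Pgam1, the phosphoglycerate mutase of liver and brain, likewise had its lowest arrays in N-control. Its N-control arrays read 8.67, 8.66 and 8.70, its OB-control arrays 9.25, 8.95 and 9.21, and its OB-TUDCA arrays 8.89, 9.03 and 9.23. N-control was again below all others, with little scatter of its own. The OB-control difference was 0.46 (SE 0.11, adjusted p = 0.111), with 0.55 without OB-control replicate 2 (adjusted p = 0.0482) and 0.40 without OB-control replicate 1 (adjusted p = 0.337). Pgk1, the phosphoglycerate kinase, differed by 0.12 and 0.03 in the same main comparisons, and Eno3, the muscle enolase, by 0.05 and 0.14. Pgam1 and Pgk1 have 3 probe sets each, of which a pair holds identical values, so near-identical copies of these genes may share the signal.

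Ldha, the lactate dehydrogenase subunit that favours lactate formation, was scattered in N-control and tight in OB-control. It read 10.85, 11.12 and 11.61 in N-control, 11.87, 11.76 and 11.88 in OB-control and 11.79, 12.16 and 12.22 in OB-TUDCA. N-control lay below the obese groups, nearest on replicate 3. Ldha was higher 1.82-fold in OB-TUDCA than in N-control (difference 0.86, SE 0.18, adjusted p = 0.0372). The OB-control difference was 0.64 (SE 0.18, adjusted p = 0.171), with 0.85 without N-control replicate 3 (adjusted p = 0.0456) and 0.47 without N-control replicate 1 (adjusted p = 0.466).

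The calls between OB-TUDCA and N-control also moved with single arrays. The Ldha call ended without N-control replicates 1 and 2, without OB-control replicates 1, 2 and 3 and without OB-TUDCA replicates 2 and 3, with adjusted p from 0.0524 to 0.137. The Pfkl call ended without N-control replicates 1, 2 and 3, OB-control replicates 1 and 3 and OB-TUDCA replicate 2, with adjusted p from 0.0579 to 0.128. Aldoa missed only without OB-TUDCA replicate 2, at 0.0514. Fitted on these 6 arrays alone, Pfkl had an adjusted p of 0.102 and Ldha of 0.111, and with the acinar covariate 0.101 and 0.104. Conversely, Pfkl passed between OB-control and N-control without OB-TUDCA replicate 3 (adjusted p = 0.0257, difference 0.59).

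Pyruvate kinase comes last before lactate. Pklr, the liver form that fasting lowers and sugar raises, varied widely within groups. It read 11.16, 10.52 and 9.83 in N-control, 11.32, 10.40 and 11.12 in OB-control and 11.32, 11.03 and 10.55 in OB-TUDCA. All groups overlapped, and the pooled SD of 0.52 was the second highest of the 30 genes. The differences were 0.45 (interval -0.34 to 1.23) and 0.02 (interval -0.76 to 0.81), too wide to speak of likeness.

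Pkm, the form of muscle and of growing cells, averaged a pair of probe sets. The one with RefSeq transcripts read 6.77, 6.85 and 6.50 in N-control, 6.70, 6.80 and 6.92 in OB-control and 6.85, 7.21 and 7.93 in OB-TUDCA. The second read 7.27, 7.32 and 7.05, then 7.65, 7.62 and 7.79, then 7.63, 7.98 and 8.43 in the same order. OB-TUDCA replicate 3 was the highest array in both, and it is also the array with the highest Pfkl signal. The average differed by 0.42 (SE 0.20, adjusted p = 0.446) between OB-TUDCA and OB-control and by 0.71 (SE 0.20, adjusted p = 0.101) between OB-TUDCA and N-control. The latter was 0.46 without OB-TUDCA replicate 3, and 0.93 with an adjusted p of 0.0268 without OB-TUDCA replicate 1.

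**Figure D4:**
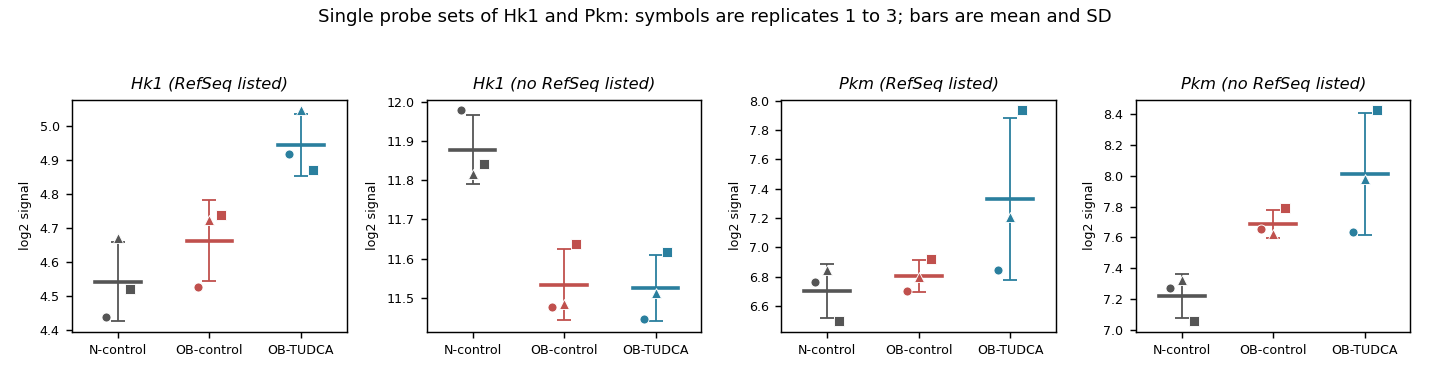
Log2 signal (vertical axes, each with its own scale) of the single probe sets of Hk1 and Pkm on the 9 arrays by group, with the mean as a bar and the SD as a whisker. The Hk1 probe sets differ in level and in the order of groups, whereas both Pkm probe sets are highest on OB-TUDCA replicate 3.

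Khk, the ketohexokinase that starts fructose breakdown, is the fructose gene of the list. Its N-control signals were 11.32, 11.18 and 10.90. OB-control gave 11.65, 11.31 and 11.67, and OB-TUDCA gave 11.80, 11.67 and 11.29. The groups touched: OB-control replicate 2 lay just below N-control replicate 1. The difference was 0.41 (SE 0.16, adjusted p = 0.354) between OB-control and N-control and 0.04 (interval -0.32 to 0.41) between OB-TUDCA and OB-control. Of 6 other fructose, galactose and polyol genes measured, all 6 were on average above the N-control arrays in OB-control. Their median difference was 0.42, and none passed. Over all genes, 11363 of 19938 were higher on average.

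The 6 glycogen genes showed no call in any of the 3 comparisons, with medians of -0.07 and 0.04 in the main ones. Gys2, the liver glycogen synthase, read 11.23, 11.09 and 10.57 in N-control, 10.85, 10.71 and 10.94 in OB-control and 10.99, 10.94 and 10.94 in OB-TUDCA. N-control spanned both other groups. Its differences were -0.13 (interval -0.47 to 0.21) and 0.12 (interval -0.22 to 0.47).

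Pygl, the liver glycogen phosphorylase, read 10.91, 10.69 and 10.54 in N-control. In OB-control it read 10.86, 10.66 and 10.77, and in OB-TUDCA 10.98, 10.74 and 10.44. The groups overlapped throughout, with differences of 0.05 (interval -0.27 to 0.37) and -0.04 (interval -0.36 to 0.28). The branching enzyme Gbe1 and the UDP-glucose maker Ugp2 differed by 0.22 and -0.22 between OB-control and N-control, and by -0.19 and -0.08 between OB-TUDCA and OB-control.

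The glycogen-targeting subunits of protein phosphatase, which draw it to glycogen to activate the synthase, varied most. Ppp1r3b, the liver form, read 7.45, 7.40 and 8.13 in N-control, 7.94, 7.65 and 7.39 in OB-control and 8.33, 8.21 and 7.97 in OB-TUDCA. All OB-TUDCA arrays exceeded all OB-control arrays by a small margin, while N-control replicate 3 lay among them. The difference was 0.51 (SE 0.21, adjusted p = 0.358) between OB-TUDCA and OB-control and -0.01 between the controls. Ppp1r3c had the highest pooled SD of the 30 genes, 0.77, with arrays from 6.26 to 8.14 in N-control, from 5.81 to 7.49 in OB-control and from 7.08 to 7.20 in OB-TUDCA. Its differences were -0.89 (SE 0.51) and 0.59 (SE 0.51), with adjusted p of 0.538 and 0.704.

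**Figure D5:**
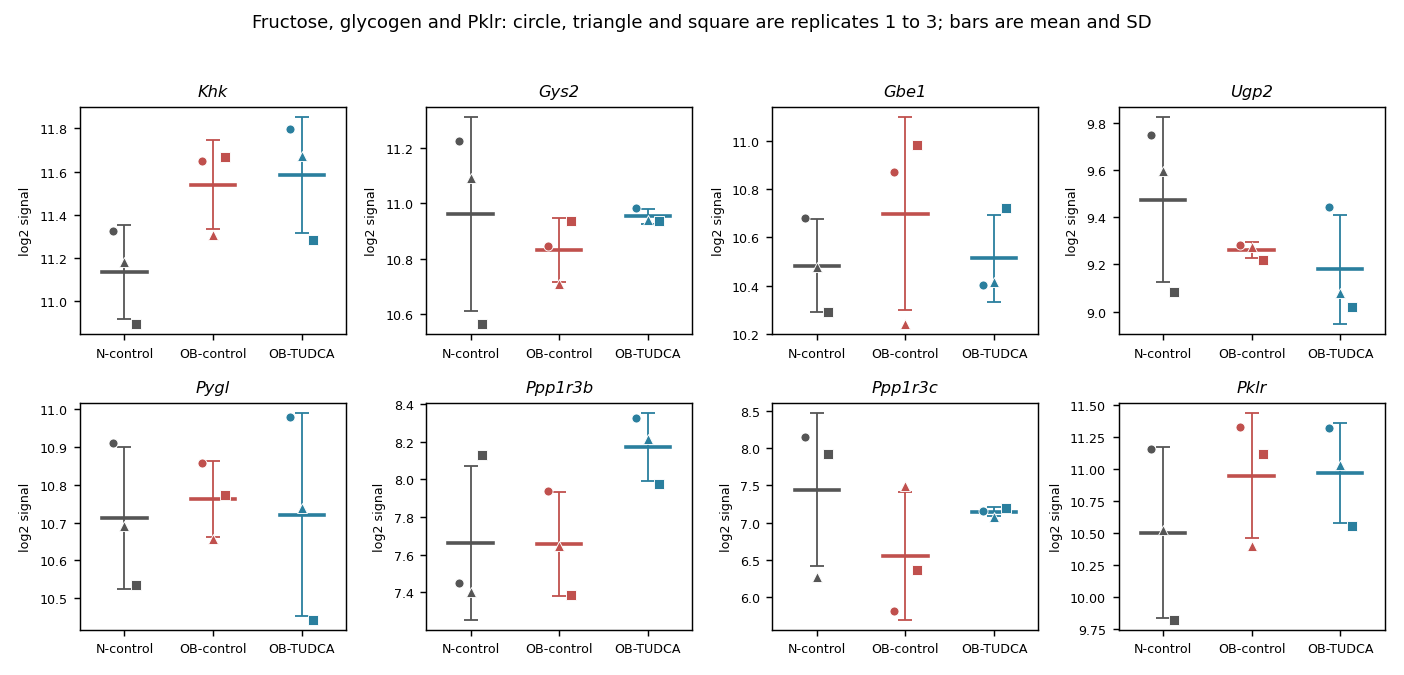
Log2 signal (vertical axes, each with its own scale) of Khk, 6 glycogen genes and Pklr on the 9 arrays by group, with the mean as a bar and the SD as a whisker. No gene separates all 3 groups, and Ppp1r3c and Pklr scatter most within the control groups.

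Single arrays stood out across these genes. N-control replicate 3 was the lowest of its group in 20 of the 30 genes, against 41.4% of all genes, and N-control replicate 1 the highest in 17, against 35.3%. OB-control replicate 2 was the lowest of its group in 14, against 35.1%. Without N-control replicate 1, the median difference between OB-control and N-control was 0.16.

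Around these genes, 117 others of the same pathways and their regulators were measured. Between OB-control and N-control 3 of them were higher and 0 lower past the threshold, with 0.456% and 0.492% of all genes. Gpt2, the mitochondrial alanine aminotransferase that turns alanine into pyruvate, rose by 0.75 (SE 0.11, adjusted p = 0.0183). Slc16a7, a carrier of lactate and pyruvate, rose by 0.70 (SE 0.11, adjusted p = 0.0269), and Slc25a10, the mitochondrial dicarboxylate carrier, by 1.19 (SE 0.21, adjusted p = 0.0346). The count was 0 without N-control replicates 1 or 2 or OB-control replicates 1 or 3. It was 1 without OB-TUDCA replicate 2, and 6 without N-control replicate 3 or OB-control replicate 2. Over all genes, 60 to 266 passed with 1 array left out, against 189 with all arrays. Between OB-TUDCA and OB-control 0 of the 117 passed in limma, and without adjustment for multiple tests 12 exceeded and 13 fell short of OB-control at p under 0.05, where the shares of all genes were 6.26% and 5.72%. The count past the threshold was 2 without OB-control replicate 2 and 1 without OB-TUDCA replicate 1. In these fits 59 and 135 of all genes passed, against 60 with all arrays.

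By list, the calls between OB-control and N-control were 1 of 23 other glycolysis and gluconeogenesis genes and 2 of 24 genes around pyruvate. There were none among 6 fructose, galactose and polyol genes, 9 pentose phosphate genes, 23 other glycogen genes and 32 regulators. Between OB-TUDCA and N-control 6 of the 117 passed, all higher, 3 of them regulators, where 1.35% of all genes were higher and 1.89% lower. One of these was Foxo1, the insulin-restrained activator of G6pc, with a difference of 0.58 (SE 0.10, adjusted p = 0.0197). Foxo1 differed by 0.29 (SE 0.10) in each main comparison, with adjusted p of 0.289 and 0.291. Mlxipl, the sugar-sensing activator of Pklr, differed by -0.08 (SE 0.22) between OB-control and N-control and by -0.41 (SE 0.22, adjusted p = 0.505) between OB-TUDCA and OB-control. The Foxo1 call ended without N-control replicates 1, 2 and 3 and without OB-TUDCA replicate 3. The count of 6 fell to 1 without N-control replicates 1 or 2 and to 2 without OB-TUDCA replicates 2 or 3. It was 10 without N-control replicate 3. Of all genes 646 passed, 214 and 245 without N-control replicates 1 and 2, and 501 without replicate 3. Without OB-TUDCA replicates 2 and 3 in turn, 193 and 325 of all genes passed.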

How the data were processed

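RNA from the livers of the 3 groups was hybridised to 9 Affymetrix Mouse Gene 1.0 ST arrays, 3 per group. The values deposited by the authors are log2 signals per probe set, made with RMA in Affymetrix Expression Console (version not given in the sources used here). RMA subtracts background, equalises the distributions of the arrays and summarises probes by median polish, which can give identical values on several arrays and shrinks small differences. All 9 value columns were used and 0 left out. Arrays have no read depth, and signal over background was not measured.

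Of 35556 probe sets, 21789 carry 1 symbol in the platform annotation, 1621 several and 12146 none. Probe sets of a symbol were averaged, without a filter on signal, which gave 19938 genes. They were fitted in R 4.3.3 with limma 3.58.1 and the data.table package, version 1.17.8 (3 group means over all 9 arrays, 6 residual and 3.33 prior degrees of freedom, two-sided, Benjamini-Hochberg over all genes, threshold 0.05). Intervals are 95% intervals from limma. The fit was tested on simulated data. The plots used matplotlib 3.10.9 under Python 3.11.15. Promoter windows came from RefSeq (GRCm38.p6), and motifs were searched on both strands.

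The genes, the lists and the motifs were chosen with earlier results of these data known. All 33 listed genes are named. Values per array are given for those past the threshold in any comparison, those at an unadjusted p under 0.05 in the main comparisons, and G6pc, Pck1, Pklr, Gys2, Pygl and Khk. Of other lists, at most 4 genes past the threshold in a main comparison are named, besides Mlxipl and Foxo1. Cebpb and Srebf1 and the marker genes named fall outside this rule and were chosen after their values were seen. Alternatives covered filter, normalization, variance prior, array weights, arrays in the fit, choice of probe set, replicate block, an acinar covariate and leaving out each array.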

Additional observations from a re-analysis of the deposited data

How the results depend on the processing

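With 3 arrays per group, counts of calls moved more than differences. Between OB-control and N-control, 0 of the 30 genes passed, 2 with array weights (Pcx and Pgam1) and 0 to 3 with 1 array left out. Of all genes, 189 passed, 358 with array weights and 60 to 266 with 1 array left out. The median difference of the 30 genes ran from 0.083 to 0.16 with 1 array left out. Between OB-TUDCA and OB-control, 2 of the 30 passed, 0 in a fit of only these 2 groups or with the acinar mean as a covariate. With 1 array left out, 0 to 2 passed. Of all genes, 60 passed, 0 with only the 2 groups or the acinar covariate, and 0 to 135 with 1 array left out. Between OB-TUDCA and N-control, 3 of the 30 passed, 5 after quantile normalization or with array weights, and 1 with only the 2 groups or the acinar covariate. With 1 array left out, 0 to 4 passed. Of all genes, 646 passed, 762 after quantile normalization, 848 with array weights, 345 with only the 2 groups and 310 with the acinar covariate. With 1 array left out, 193 to 788 of all genes passed. Of the 117 other pathway genes, 3 passed between OB-control and N-control, 6 with array weights, 0 with only the 2 groups or the acinar covariate, and 0 to 6 with 1 array left out. Between OB-TUDCA and OB-control, 0 of them passed, but 1 (Cebpb) did with the genes of lowest signal left out, after quantile normalization, median subtraction, the trended robust prior or array weights, or with RefSeq probe sets only, an alternative chosen after seeing the data, and 0 to 2 with 1 array left out. Between OB-TUDCA and N-control, 6 passed, 10 after quantile normalization, 3 with only the 2 groups, 1 with the acinar covariate, and 1 to 10 with 1 array left out. No called difference changed sign, and fits of fewer arrays have fewer degrees of freedom. The cause of the other shifts was not tested.

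The replicate numbers were also tried as a block. Deviations of same-numbered arrays correlated between -0.08 and 0.21. The own-numbered array correlated best in 15 of 18 cases, each a choice among the 3 arrays of another group. Whether the numbers mark pairs was not settled by these values, and the main fit leaves them out. With the replicate block, 2 of the 30 genes passed between OB-control and N-control (G6pc lower, adjusted p = 0.0350, and Pcx higher). Between OB-TUDCA and OB-control 0 passed (adjusted p of 0.0572 for Aldoa and 0.0587 for Pfkp). Between OB-TUDCA and N-control 5 passed, G6pc among them (adjusted p = 0.0272). Of all genes, 189, 60 and 871 passed with the block in these 3 comparisons, against 189, 60 and 646 without it. With the block, 1 of the other pathway genes (Srebf1) passed between OB-TUDCA and OB-control.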
